A study of Mus musculus with 8 samples.

Results

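The 34 genes described here belong to the interferon response and to the sensing of RNA and DNA inside cells. They were picked by symbol with earlier results of these data known, the rule itself using no measured value, and all 34 had a probeset of their own among the 19937 genes measured. By role they comprised 3 Ifit genes, 5 genes of the oligoadenylate synthetase family, 2 receptor chains, 5 transcription factors, 6 sensors, 2 sensor adaptors, 8 effectors and 3 regulators. Total RNA of NMuMG cells, an epithelial cell line from mouse mammary gland, had been hybridised to 8 Affymetrix gene arrays in 4 groups of 2. The groups were cells stably transfected with a major satellite vector after 8 h of TGFbeta, the same cells at 0 h, cells stably transfected with a control vector after 8 h of TGFbeta, and the same control cells at 0 h. Major satellite is the repeat that makes up pericentromeric heterochromatin in the mouse, and the study was described as its overexpression. The labels did not say whether the transfected cells were clones or pools, what promoter drove the repeat, or whether the 2 arrays of a group came from separate cultures, and p-values therefore cover no more than the array-to-array spread, which may be technical. The level of the satellite RNA itself was not analysed here.

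As background, double-stranded RNA in the cytoplasm is bound by the helicases RIG-I (Ddx58) and MDA5 (Ifih1), which signal through the mitochondrial adaptor MAVS to the transcription factor IRF3 and so to type I interferon genes. Secreted interferon binds the receptor chains IFNAR1 and IFNAR2, and a complex that holds STAT2 and IRF9 then switches on genes such as the Ifit, Oas and Mx families through a DNA element called the interferon-stimulated response element. Transcripts of pericentromeric repeats can form double strands, which is why these genes bear on cells that overexpress such a repeat.

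Promoter windows from 250 bases before to 50 bases after the transcription start were taken from RefSeq (build GRCm38.p6) for 25 of the 34 genes, and 9 had no window in the table used. The core of the response element was searched as GAAANNGAAA or its reverse complement TTTCNNTTTC, where N is any base. It was found in 10 of the 25 genes (Ifit1, Ifit3, Oas1a, Oas3, Rsad2, Stat2, Bst2, Ddx58, Eif2ak2 and Ifih1), against 3.99% of 27025 genes with a window. The core of the gamma-activated site, TTCNNNGAA, which reads the same on both strands, was found in 9 of the 25, against 9.55% of all genes. A match is a run of letters and not a measured binding site. The 4 windows below belong to pairs of family members of which 1 passed in the TGFbeta comparison and the other did not. Ifit3 (chr19:34583279-34583578, plus strand) held the core at -156 and -122 from the start, and Ifit1 (chr19:34640639-34640938, plus strand), 4 protein-coding genes further along, held it at -104 and -85. Oasl2 (chr5:114896684-114896983, plus strand) and its neighbour Oasl1 (chr5:114922990-114923289, plus strand) held no match in this window. Capitals mark the core.
Ifit3: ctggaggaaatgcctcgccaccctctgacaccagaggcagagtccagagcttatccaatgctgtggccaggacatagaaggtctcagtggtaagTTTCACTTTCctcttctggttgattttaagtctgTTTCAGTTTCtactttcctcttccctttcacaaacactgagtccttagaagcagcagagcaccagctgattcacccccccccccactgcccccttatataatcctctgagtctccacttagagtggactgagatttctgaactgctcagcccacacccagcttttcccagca
Ifit1: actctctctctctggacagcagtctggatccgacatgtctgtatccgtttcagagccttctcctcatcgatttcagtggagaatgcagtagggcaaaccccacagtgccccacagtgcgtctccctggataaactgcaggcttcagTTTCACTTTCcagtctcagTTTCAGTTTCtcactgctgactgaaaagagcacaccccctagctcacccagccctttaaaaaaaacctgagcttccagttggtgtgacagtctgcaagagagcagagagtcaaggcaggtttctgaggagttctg
Oasl2: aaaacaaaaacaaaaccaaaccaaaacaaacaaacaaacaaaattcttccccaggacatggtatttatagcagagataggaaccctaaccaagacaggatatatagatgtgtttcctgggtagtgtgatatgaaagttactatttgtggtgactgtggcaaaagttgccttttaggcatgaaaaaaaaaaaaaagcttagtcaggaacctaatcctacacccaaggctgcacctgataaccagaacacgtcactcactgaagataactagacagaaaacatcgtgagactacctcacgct
Oasl1: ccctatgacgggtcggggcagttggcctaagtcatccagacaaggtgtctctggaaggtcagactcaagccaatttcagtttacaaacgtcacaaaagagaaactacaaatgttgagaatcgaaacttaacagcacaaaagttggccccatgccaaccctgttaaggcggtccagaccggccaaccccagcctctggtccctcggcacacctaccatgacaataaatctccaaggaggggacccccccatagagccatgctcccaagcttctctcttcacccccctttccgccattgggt

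The deposited values were log2 expression, on which a difference of 1 is a 2-fold change, and levels of different genes cannot be compared because each probeset binds with its own strength. Values are given for replicate number 1 and then number 2, a code shared by 1 array of each group. Tests were limma fits over all 8 arrays with Benjamini-Hochberg adjustment over 19937 genes, and adjusted p under 0.05 counted as passing. The unblocked fit held the 4 group means. Errors after ± are standard errors of this fit, also where a blocked p-value stands beside them. The blocked fit also held the replicate number, because arrays differed by it: medians were 7.72 to 7.76 in number 1 and 7.88 to 7.92 in number 2. In 3 of the genes, Ifit1, Mx2 and Rsad2, the mean was under 6.78, the 25th percentile of gene means, where a probeset may read background alone. Ifit3 and Mx1 had means above it but lay below it on all 4 TGFbeta arrays. The sizes of their falls with TGFbeta may therefore be limited by background. Of 8 mammary epithelial markers, 0 were below that percentile, against 4 of 8 immune markers (among them the pan-leukocyte gene Ptprc), 2 of 7 fibroblast markers and 3 of 5 endothelial markers. The split was not clean. Means of the epithelial markers Epcam and Cldn7 (both 6.84) were just above the percentile, like that of the endothelial marker Pecam1 (6.84). Those of the immune markers Cd68 (8.82) and Cd3e (7.55) were further above it. The treatment was visible in Smad7, the feedback inhibitor of TGFbeta receptors, at 10.55 and 10.63 after TGFbeta against 9.47 and 9.35 at 0 h in major satellite cells, and at 10.49 and 10.78 against 9.37 and 9.45 in control vector cells.

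The first question was whether 8 h of TGFbeta moved these genes. In the unblocked fit a few interferon-induced genes were lower after TGFbeta (Ifit2, Ifit3, Herc6) and 1 was higher (Oasl2). The blocked fit also called Tlr3, Trim25, Mx1, Mx2, Mavs, Sting1 and Eif2ak2 lower, and Irf1, Irf9, Ifnar1 and Ifi35 higher. In either fit most of the 34 did not pass. With both vectors averaged, the unblocked fit called 1 gene higher and 3 lower, that is 2.94% and 8.82% of the 34, against 2.57% of all genes higher and 2.25% lower. The blocked fit called 5 higher and 10 lower, 14.7% and 29.4% of the 34, against 11.2% and 13.1% of all genes. The median difference of the 34 was 0.02, beside 0.02 over all genes.

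Taken by vector, the unblocked fit called 1 of 34 genes higher (Oasl2) and 0 lower in major satellite cells, against 0.682% and 0.411% of all genes, and 1 higher (Oasl2) and 1 lower (Ifit3) in control vector cells, against 0.707% and 0.366%. At an unadjusted p under 0.05 there were 5 genes in major satellite cells, against 9.72% of all genes, and 6 in control vector cells, against 9.34%. The blocked fit called 3 higher and 7 lower in major satellite cells (8.82% and 20.6% of the 34, against 6.89% and 8.38% of all genes) and 2 higher and 5 lower in control vector cells (5.88% and 14.7%, against 6.92% and 7.63%). The genes called in control vector cells with the block (Ifit2, Ifit3, Oasl2, Irf1, Tlr3, Herc6 and Trim25) were all among those called in major satellite cells, with the same sign. The fits of the 2 vectors use different arrays but share their estimate of the spread. How far calls overlap between the vectors over all genes was not worked out. The overlap is therefore not a result about these 34 genes.

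**Figure D1:**
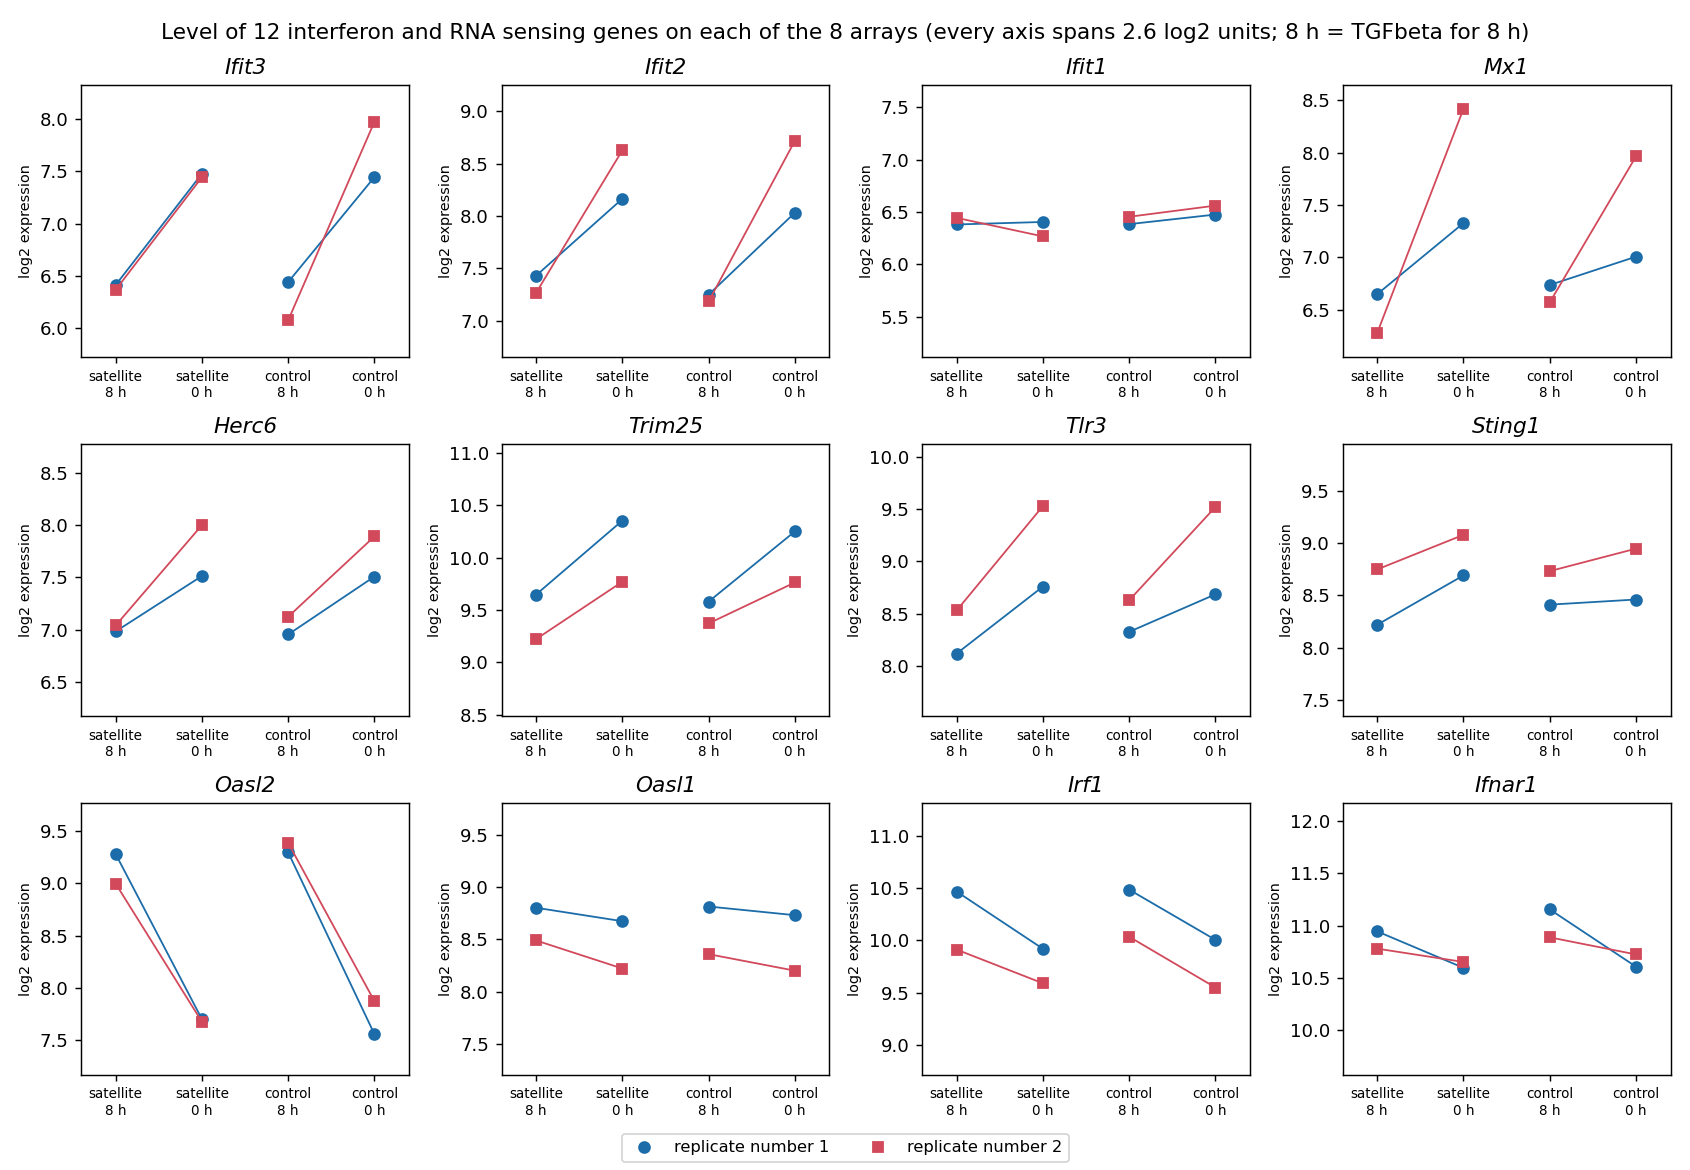
Log2 expression (y axis, each spanning 2.6 log2 units) of 12 of the genes on the 8 arrays, with groups on the x axis; circles are replicate number 1, squares number 2, and lines join arrays of the same vector and number. Ifit3, Ifit2, Mx1, Herc6, Trim25 and Tlr3 are lower after TGFbeta along every line, Oasl2 and Irf1 are higher along every line, and Ifit1 stays between 6.27 and 6.56.

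Among the Ifit genes, whose proteins bind viral RNA and block its translation, Ifit2 and Ifit3 fell together and Ifit1 did not pass. Ifit3 stood at 6.41 and 6.37 after TGFbeta against 7.48 and 7.44 at 0 h in major satellite cells, and at 6.44 and 6.08 against 7.45 and 7.97 in control vector cells. All 4 TGFbeta arrays lay below all 4 arrays at 0 h. The difference was -1.07 ± 0.20 (SE, 2 arrays per group; limma adjusted p = 0.0866, blocked 0.00314) in major satellite cells and -1.45 ± 0.20 (adjusted p = 0.035, blocked 0.000607) in control vector cells. Averaged over the vectors, Ifit3 fell by 1.26 ± 0.14 (limma adjusted p = 0.00715, blocked 8.09e-05). The unblocked call in control vector cells was lost without any 1 of the 8 arrays (adjusted p = 0.0692 to 0.223), while the averaged call held without each (0.011 to 0.0402), as did the blocked ones (at most 0.0445). A near-identical neighbour, Ifit3b, has a probeset of its own, and how far the Ifit3 probes also bind its transcript was not tested.

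Ifit2 was at 7.43 and 7.27 after TGFbeta against 8.17 and 8.63 at 0 h in major satellite cells, and at 7.25 and 7.19 against 8.03 and 8.72 in control vector cells. Here too the TGFbeta arrays lay below all arrays at 0 h, and the gap was wider in replicate number 2 in both vectors (-1.36 and -1.54) than in number 1 (-0.74 and -0.78). Ifit2 fell by 1.10 ± 0.18 over both vectors (limma adjusted p = 0.0225, blocked 0.000281). The unblocked call was lost without any 1 of 5 arrays (adjusted p up to 0.099), and the blocked one held without each. Within vectors the difference passed with the block alone, at -1.05 ± 0.25 in major satellite cells (limma adjusted p = 0.156, blocked 0.0052) and -1.16 ± 0.25 in control vector cells (adjusted p = 0.123, blocked 0.0031). Without the number 2 array of major satellite cells at 0 h or after TGFbeta, the blocked call in those cells was lost (-0.89, adjusted p = 0.0636, and -0.79, adjusted p = 0.0687). Ifit1 was near background on every array, at 6.38 and 6.44 after TGFbeta against 6.41 and 6.27 at 0 h in major satellite cells, and at 6.38 and 6.46 against 6.48 and 6.56 in control vector cells. Its promoter window and that of Ifit3 both held 2 copies of the response element core, as printed above, and Ifit2 had 2 windows with none.

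In the oligoadenylate synthetase family, Oasl2 was the one member to pass in any comparison. It encodes an enzymatically active 2-5A synthetase-like protein in the mouse. Oasl2 was at 9.28 and 9.0 after TGFbeta against 7.70 and 7.68 at 0 h in major satellite cells, and at 9.30 and 9.39 against 7.56 and 7.87 in control vector cells. Every TGFbeta array was more than a log2 unit above every array at 0 h. Oasl2 rose by 1.45 ± 0.16 in major satellite cells (limma adjusted p = 0.02, blocked 0.00016) and by 1.62 ± 0.16 in control vector cells (adjusted p = 0.014, blocked 8.2e-05), and by 1.54 ± 0.11 over both (adjusted p = 0.00188). The averaged call held without each of the 8 arrays (adjusted p = 0.00872 to 0.0137), whereas the unblocked call within control vector cells was lost without any 1 of the 4 control vector arrays (adjusted p up to 0.127) and that within major satellite cells without any 1 of 6 arrays (up to 0.16).

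Its neighbour Oasl1, which represses translation of Irf7 mRNA, was at 8.80 and 8.49 after TGFbeta against 8.67 and 8.22 at 0 h in major satellite cells, and at 8.81 and 8.36 against 8.73 and 8.20 in control vector cells. These values overlapped, with a mean difference of 0.16 ± 0.19 (limma adjusted p = 0.863, blocked 0.0998). The synthetases proper, which make the 2-5A that activates RNase L, differed by -0.12 (Oas1a), 0.01 (Oas2) and 0.12 (Oas3) over both vectors, and their adjusted p was 0.344 or more in either fit. Oas1a has a near-identical copy, Oas1g, whose transcript its probes may also bind. Neighbouring genes of 1 family therefore differed in whether they passed, and the difference between them was not tested.

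The receptor chain Ifnar1 was at 10.95 and 10.78 after TGFbeta against 10.60 and 10.65 at 0 h in major satellite cells, and at 11.16 and 10.89 against 10.61 and 10.73 in control vector cells. Its mean difference of 0.30 ± 0.10 passed with the block alone (limma adjusted p = 0.191, blocked 0.0206), and this call was lost without any 1 of the 4 number 1 arrays (adjusted p up to 0.0982). Ifnar2, the other chain, was at 11.44 and 11.27 against 11.36 and 11.33 in major satellite cells and at 11.49 and 11.41 against 11.26 and 11.26 in control vector cells, and did not pass (0.10 ± 0.08, blocked adjusted p = 0.299).

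Of the 5 transcription factors, Irf1 and Irf9 were higher with the block and Irf3, Irf7 and Stat2 did not pass. Irf1, an activator induced mainly by interferon gamma, was at 10.46 and 9.91 after TGFbeta against 9.92 and 9.59 at 0 h in major satellite cells, and at 10.48 and 10.03 against 10.00 and 9.55 in control vector cells. The groups overlapped across replicate numbers, but within each number both TGFbeta arrays lay above both arrays at 0 h. The difference was 0.43 ± 0.27 in major satellite cells (limma adjusted p = 0.81, blocked 0.0103) and 0.48 ± 0.27 in control vector cells (adjusted p = 0.806, blocked 0.00611). The blocked call was lost without either number 1 array in major satellite cells (adjusted p up to 0.123) and without either number 2 array in control vector cells (up to 0.0626), and held without each array when the vectors were averaged (at most 0.00502). A second, dimmer Irf1 probeset read 8.10 and 7.92 against 7.92 and 7.73 in major satellite cells and 8.15 and 7.87 against 7.99 and 7.95 in control vector cells, and so was lower after TGFbeta in number 2 of the control vector.

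Irf9, the DNA-binding part of the complex with the STATs, was at 8.96 and 9.05 after TGFbeta against 8.82 and 8.85 at 0 h in major satellite cells, and at 8.93 and 9.15 against 8.73 and 8.89 in control vector cells. Its mean difference of 0.20 ± 0.09 (limma adjusted p = 0.383, blocked 0.0417) was lost in the blocked fit without any 1 of the 8 arrays (adjusted p = 0.0633 to 0.187). Stat2 was at 9.61 and 9.37 against 9.44 and 9.25 in major satellite cells and at 9.62 and 9.49 against 9.37 and 9.43 in control vector cells, with a mean difference of 0.15 ± 0.10 (blocked adjusted p = 0.152). Irf7, which amplifies type I interferon production, was at 7.21 and 6.87 after TGFbeta against 7.18 and 7.13 at 0 h in major satellite cells, and at 7.19 and 6.86 against 7.20 and 7.11 in control vector cells. These groups overlapped, as did those of Irf3, with mean differences of -0.12 for Irf7 and 0.12 for Irf3.

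**Figure D2:**
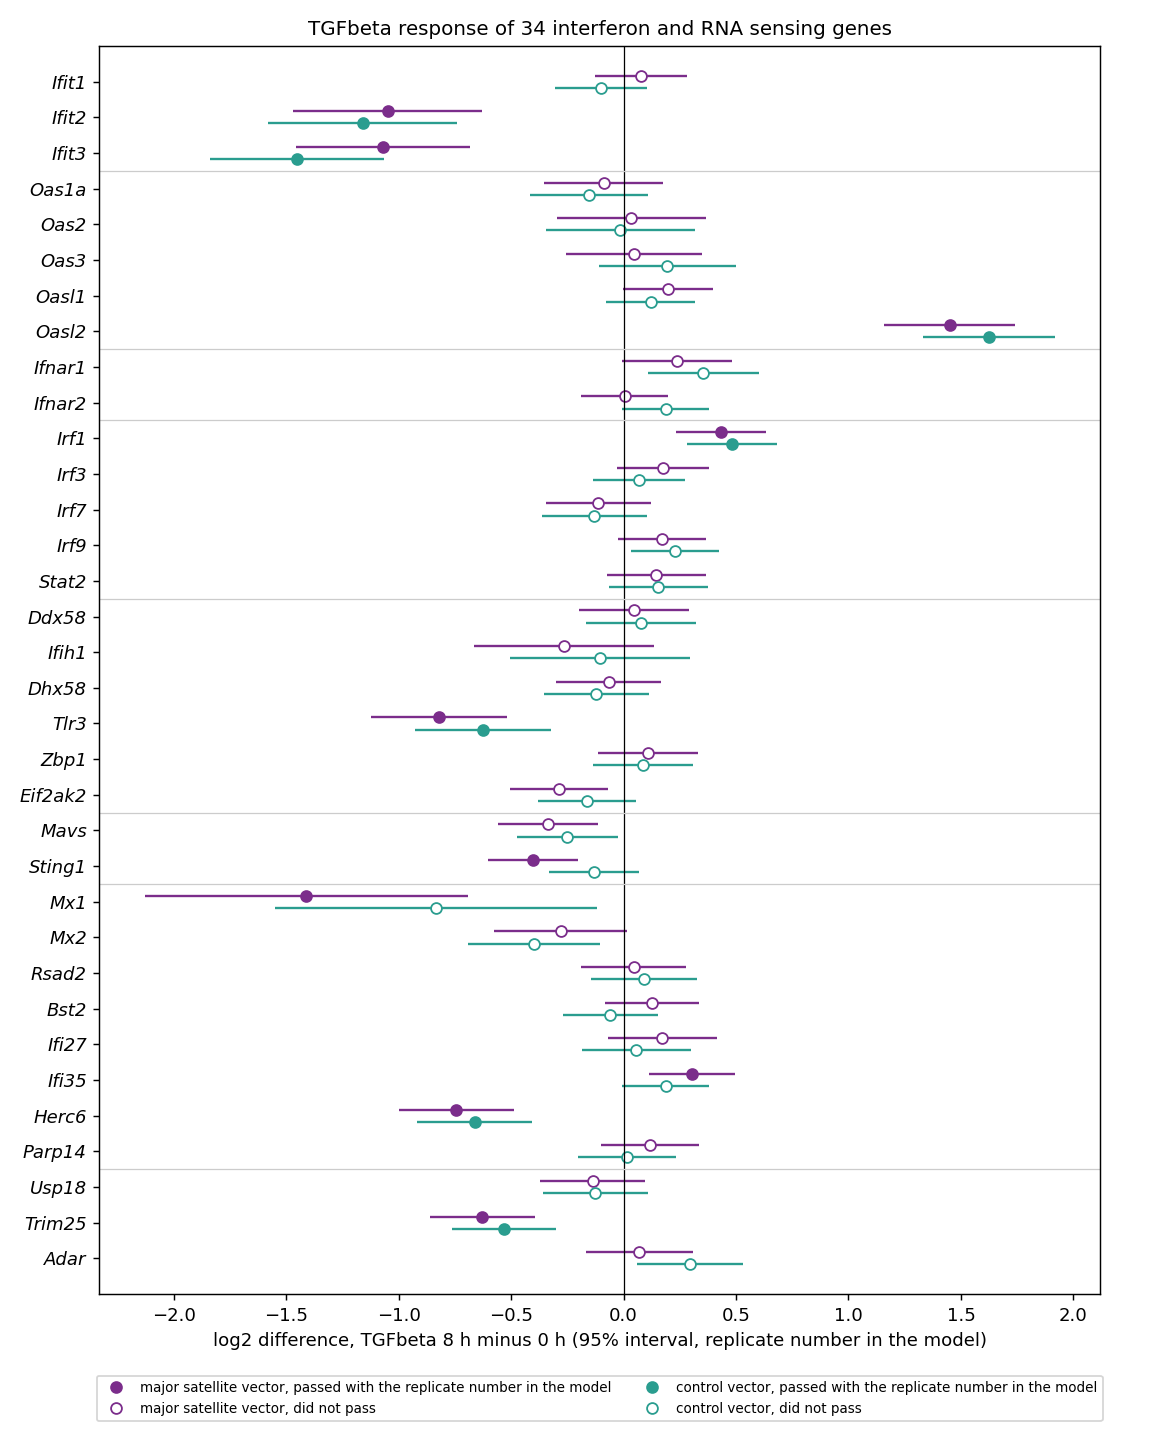
Log2 difference, TGFbeta 8 h minus 0 h (x axis), for each of the 34 genes (y axis, by role), with 95% intervals from the limma fit with replicate number in the model; purple is the major satellite vector and green the control vector, and filled points passed. Oasl2 lies at 1.45 and 1.62, and Ifit2, Ifit3, Tlr3, Herc6 and Trim25 lie below 0 with filled points in both vectors.

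Among the sensors, Tlr3 fell with the block. Tlr3 encodes the endosomal receptor for double-stranded RNA and was at 8.12 and 8.53 after TGFbeta against 8.76 and 9.53 at 0 h in major satellite cells, and at 8.33 and 8.63 against 8.68 and 9.52 in control vector cells. All 4 TGFbeta arrays were below all 4 arrays at 0 h. The difference was -0.82 ± 0.36 in major satellite cells (limma adjusted p = 0.552, blocked 0.00342) and -0.62 ± 0.36 in control vector cells (adjusted p = 0.822, blocked 0.0129). Averaged over the vectors it was -0.72 ± 0.25 (adjusted p = 0.227, blocked 0.000499). Without a number 2 array of the vector in question the blocked call was lost, with adjusted p up to 0.051 in major satellite cells and up to 0.165 in control vector cells.

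The cytoplasmic helicases did not pass. Ddx58 (RIG-I) was at 9.29 and 9.38 after TGFbeta against 9.07 and 9.50 at 0 h in major satellite cells, and at 9.38 and 9.39 against 9.22 and 9.39 in control vector cells. Ifih1 (MDA5) was at 8.08 and 8.33 against 8.08 and 8.86 in major satellite cells, and at 8.25 and 8.57 against 7.98 and 9.05 in control vector cells. In Ifih1 the arrays of number 2 were lower after TGFbeta in both vectors (-0.53 and -0.48) and those of number 1 were not (-0.00 and 0.27). Dhx58, which regulates both helicases, and Zbp1, a sensor of Z-form nucleic acid, had mean differences of -0.09 and 0.10 with blocked adjusted p of 0.414 and 0.37. Eif2ak2, which encodes the kinase PKR, was at 9.03 and 9.59 against 9.19 and 10.01 in major satellite cells and at 8.98 and 9.83 against 9.20 and 9.94 in control vector cells. Its mean difference of -0.23 (unblocked SE 0.30) passed with the block (blocked limma adjusted p = 0.0393). Within each vector its SE was 0.43 unblocked and 0.10 blocked. The call was lost without any 1 of 7 of the 8 arrays, with blocked differences of -0.29 to -0.16.

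The 2 adaptors were lower with the block when both vectors were averaged. Mavs was at 10.84 and 10.22 after TGFbeta against 11.05 and 10.68 at 0 h in major satellite cells, and at 10.76 and 10.41 against 10.98 and 10.70 in control vector cells. Sting1, the adaptor of cytoplasmic DNA sensing, was at 8.22 and 8.75 against 8.69 and 9.08 in major satellite cells and at 8.41 and 8.73 against 8.46 and 8.95 in control vector cells. Both were lower after TGFbeta within every vector and number. The mean difference was -0.29 ± 0.18 for Mavs (limma adjusted p = 0.604, blocked 0.0136) and -0.27 ± 0.19 for Sting1 (adjusted p = 0.677, blocked 0.0128), and each blocked call was lost without any 1 of 3 arrays (adjusted p up to 0.0697 and 0.0719). Within major satellite cells Sting1 differed by -0.40 (blocked adjusted p = 0.0154, lost without any 1 of 3 arrays with adjusted p up to 0.126) and Mavs by -0.34 (blocked adjusted p = 0.0505).

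Among the effectors, Herc6, the main ligase that attaches ISG15 to proteins in the mouse, was at 6.98 and 7.04 after TGFbeta against 7.51 and 8.00 at 0 h in major satellite cells, and at 6.95 and 7.12 against 7.51 and 7.89 in control vector cells. The TGFbeta arrays lay below all arrays at 0 h. Herc6 fell by 0.70 ± 0.14 over both vectors (limma adjusted p = 0.0475, blocked 0.000216). The unblocked call was lost without any 1 of 7 of the 8 arrays (adjusted p up to 0.154), and the blocked one held without each (at most 0.00195). By vector it was -0.74 ± 0.20 in major satellite cells (adjusted p = 0.211, blocked 0.00239) and -0.66 ± 0.20 in control vector cells (adjusted p = 0.287, blocked 0.00439), where the blocked call was lost without either number 2 array (up to 0.0631).

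Mx1, a dynamin-like GTPase that blocks influenza viruses, spread most between replicate numbers. It was at 6.65 and 6.28 after TGFbeta against 7.33 and 8.42 at 0 h in major satellite cells, and at 6.74 and 6.57 against 7.01 and 7.97 in control vector cells. All TGFbeta arrays lay below all arrays at 0 h, and the gap was -0.68 and -2.14 within numbers 1 and 2 in major satellite cells and -0.27 and -1.40 in control vector cells. The fitted difference was -1.41 ± 0.43 in major satellite cells (limma adjusted p = 0.275, blocked 0.0165) and -0.83 ± 0.43 in control vector cells (adjusted p = 0.727, blocked 0.131). Without the number 2 array at 0 h or after TGFbeta, the major satellite call was lost in the blocked fit (-0.93, adjusted p = 0.165, and -0.91, adjusted p = 0.177). Over both vectors the blocked call (-1.12, adjusted p = 0.00551) held without each array.

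Mx2 was near background, at 5.76 and 5.49 after TGFbeta against 5.77 and 6.05 at 0 h in major satellite cells, and at 5.55 and 5.33 against 5.84 and 5.84 in control vector cells, with a mean difference of -0.34 ± 0.11 (limma adjusted p = 0.198, blocked 0.0247). Ifi35 was at 9.35 and 9.18 against 9.08 and 8.85 in major satellite cells and at 9.37 and 9.02 against 9.15 and 8.87 in control vector cells, with a mean difference of 0.25 ± 0.13 (adjusted p = 0.476, blocked 0.0158). The blocked calls of both were lost without any 1 of 5 arrays (adjusted p up to 0.116 for Mx2 and 0.0752 for Ifi35). The blocked Ifi35 call within major satellite cells (0.30, adjusted p = 0.0425) was lost without any 1 of the 8 (up to 0.231). The other 4 effectors (Rsad2, Bst2, Ifi27 and Parp14) had mean differences of 0.07, 0.03, 0.12 and 0.07, and did not pass.

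Of the 3 regulators, Trim25, the ubiquitin ligase that activates RIG-I, was at 9.65 and 9.22 after TGFbeta against 10.36 and 9.77 at 0 h in major satellite cells, and at 9.58 and 9.37 against 10.25 and 9.76 in control vector cells. It was lower within every vector and number, by -0.71 and -0.55 in major satellite cells and by -0.67 and -0.39 in control vector cells. The mean difference was -0.58 ± 0.19 (limma adjusted p = 0.191, blocked 0.000397), and the blocked call over both vectors held without each array, while that in control vector cells was lost without any 1 of 3 of them (adjusted p up to 0.0864). Usp18, which removes ISG15 and restrains the interferon receptor, differed by -0.13 ± 0.10, and Adar, which edits double-stranded RNA, by 0.18 ± 0.15. Neither passed, with blocked adjusted p of 0.243 and 0.112.

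**Figure D3:**
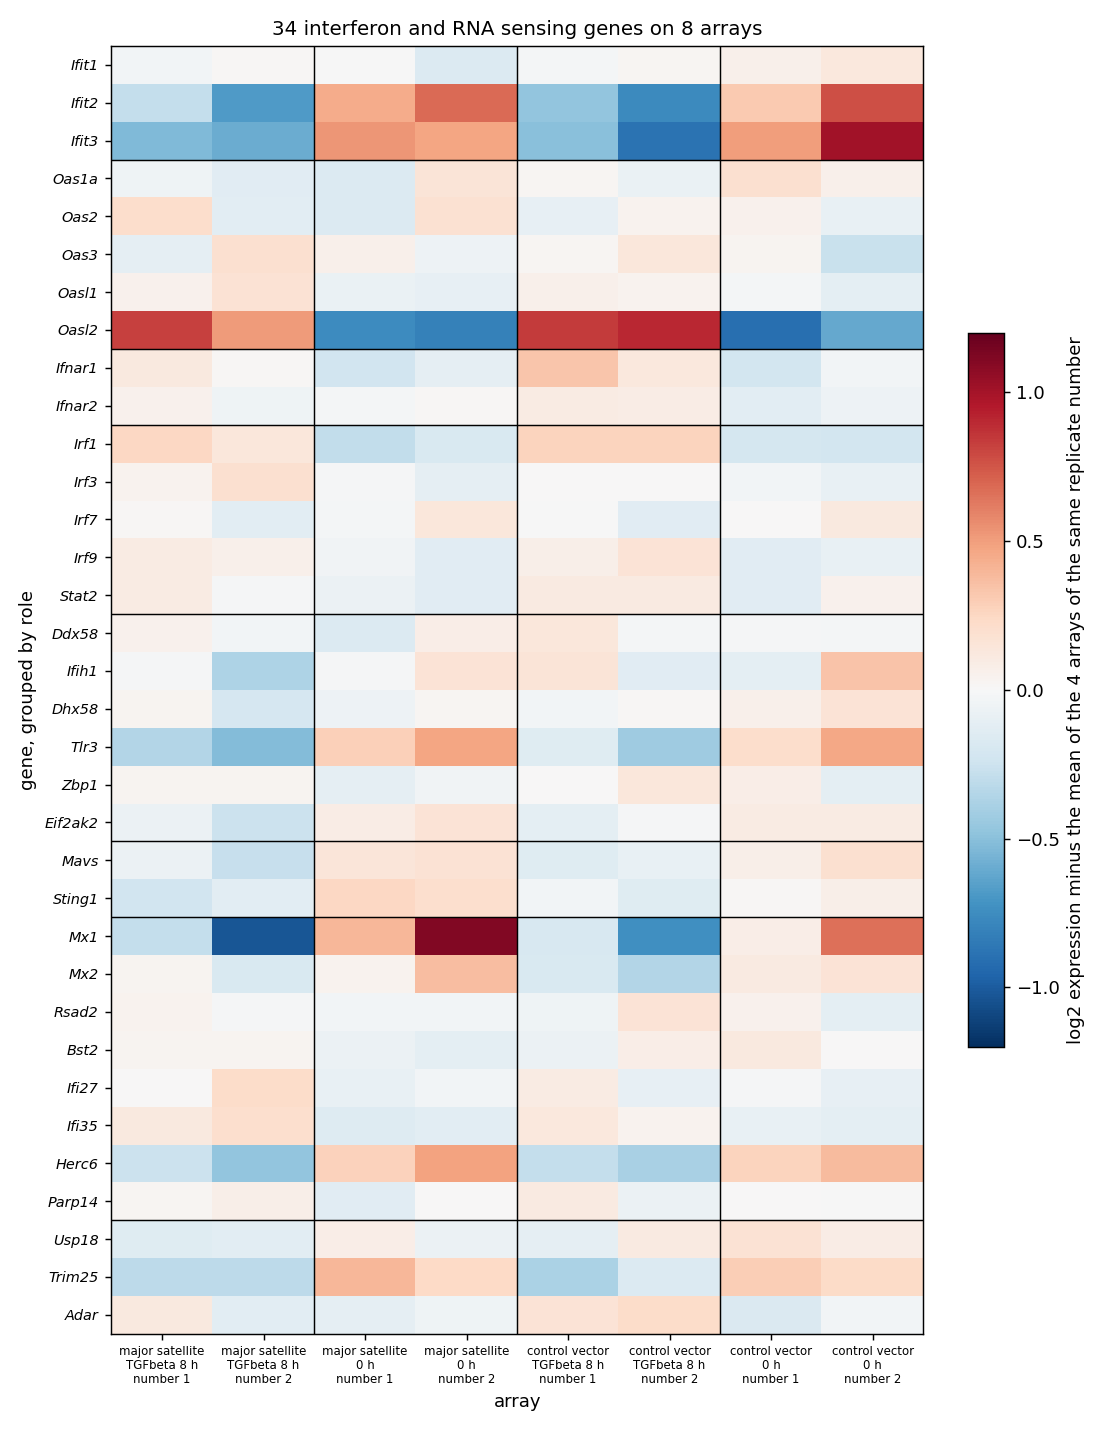
Log2 expression of the 34 genes (rows, by role) on the 8 arrays (columns), each as the difference from the mean of the 4 arrays of its replicate number; red is higher, blue is lower. The strongest colours are those of Oasl2, Ifit2, Ifit3, Mx1, Tlr3 and Herc6 between TGFbeta and 0 h.

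The second question was whether cells with the major satellite vector had higher levels of these genes than cells with the control vector. None of the 34 passed at 0 h, after TGFbeta or averaged over both, in the unblocked or the blocked limma fit, and 0 reached an unadjusted p under 0.05 in any of the 6 fits, against 0.426% to 6.51% of all genes. Of all genes, 0.00502% passed at 0 h and 0.00502% after TGFbeta in the unblocked fit, 0.0301% in each of the blocked fits, and 0.01% (unblocked) and 0.0853% (blocked) with both times averaged. At 0 h the differences ran from -0.25 (Ifit3) to 0.39 (Mx1), with 16 genes higher and 18 lower and a median of -0.00. After TGFbeta they ran from -0.20 to 0.19, with 11 higher and 23 lower and a median of -0.04, against a median of 0.01 over all genes.

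The intervals limit, gene by gene, what these arrays could have missed. Like the p-values they cover no more than the array-to-array spread, which may be technical. They were not widened for the number of genes read together. For genes near background (Ifit1, Mx2 and Rsad2, and Ifit3 and Mx1 after TGFbeta) they limit the measured signal and may not limit the RNA. Averaged over both times, the 95% interval of every one of the 34 differences lay within 1 log2 unit of 0, and the highest upper limit was 0.83 for Mx1 (1.77-fold), or 0.61 with the block. At 0 h, 32 of the 34 upper limits were under 1 and the others were those of Mx1 (1.42) and Eif2ak2 (1.06). With the block only the Mx1 limit (1.10) was above 1, and 33 of the 34 were under 0.5. After TGFbeta all 34 upper limits were under 1. Differences inside these intervals were not distinguished from 0.

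The sensors and adaptors of double-stranded RNA were close between vectors. Ddx58 was at 9.07 and 9.50 in major satellite cells against 9.22 and 9.39 in control vector cells at 0 h, a difference of -0.02 (95% interval -0.41 to 0.37). Ifih1 was at 8.08 and 8.86 against 7.98 and 9.05, a difference of -0.04 (-0.99 to 0.91, blocked -0.44 to 0.36). Tlr3 differed by 0.04 and Eif2ak2 by 0.03 at 0 h. Mavs differed by 0.03 and Sting1 by 0.18 (blocked -0.02 to 0.38).

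The induced genes were close as well. Irf7 was at 7.18 and 7.13 in major satellite cells against 7.20 and 7.11 in control vector cells at 0 h, a difference of -0.00 (95% interval -0.41 to 0.40). Oasl2 differed by -0.03 at 0 h and by -0.20 after TGFbeta (blocked -0.49 to 0.09). Ifit1, Ifit2 and Ifit3 differed by -0.18, 0.02 and -0.25 at 0 h and by -0.01, 0.13 and 0.13 after TGFbeta. Mx1 was higher in major satellite cells at 0 h within both numbers (7.33 against 7.01 and 8.42 against 7.97), by 0.39 ± 0.43, and lower after TGFbeta (6.65 against 6.74 and 6.28 against 6.57), by -0.19 ± 0.43. Both differences were smaller than the gap between its replicate arrays at 0 h.

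**Figure D4:**
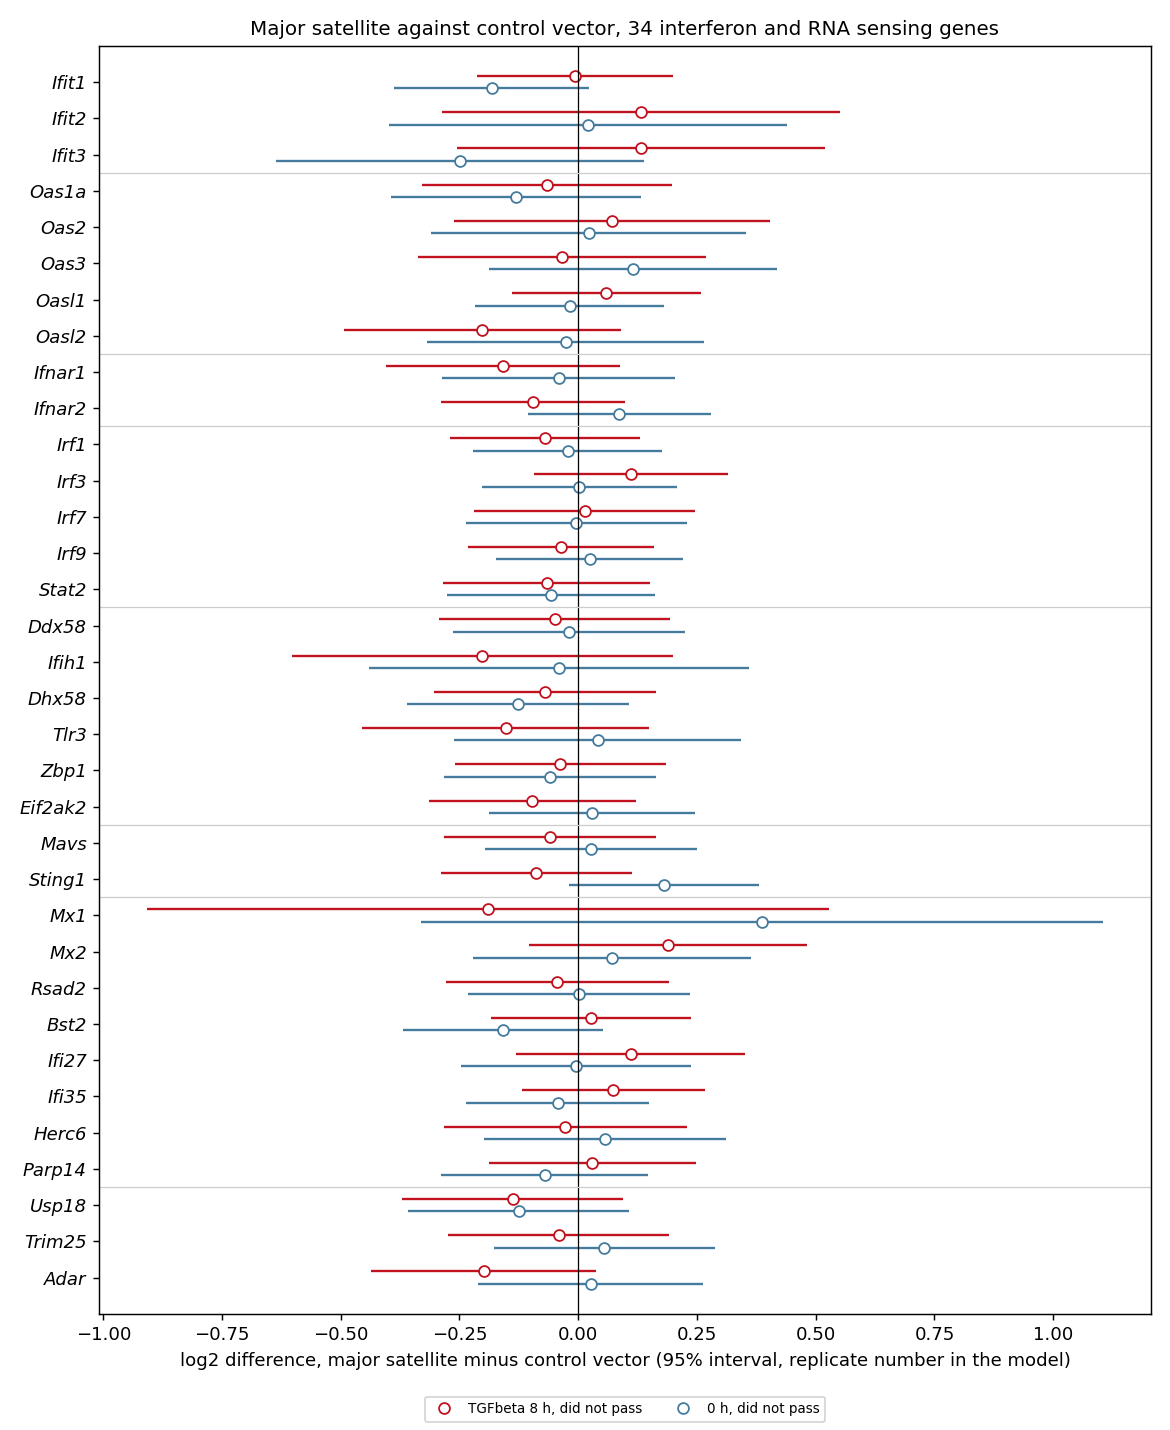
Log2 difference, major satellite minus control vector (x axis), for each of the 34 genes (y axis, by role), with 95% intervals from the limma fit with replicate number in the model; red is after 8 h of TGFbeta and blue at 0 h, and open points did not pass. All points lie between -0.25 and 0.39, and every interval includes 0.

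The third question was whether the vectors differed in their response to TGFbeta. None of the 34 genes passed in this limma comparison of responses, blocked or not, and 0% of all genes passed. None of the 34 reached an unadjusted p under 0.05, against 0.221% of all genes unblocked and 3.3% blocked. The differences between responses ran from -0.58 (Mx1, 95% interval -2.03 to 0.88) to 0.38 (Ifit3, -0.31 to 1.07). Sting1, called with the block in major satellite cells and not in control vector cells, differed between them by -0.27 (blocked 95% interval -0.55 to 0.02, blocked adjusted p = 0.999), and Ifi35 by 0.12 (blocked -0.16 to 0.39). For 26 of the 34 genes the interval lay within 1 log2 unit of 0, and for 33 with the block.

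Other genes of the pathway were counted from 7 lists, of which 79 of 92 genes had a probeset with 1 symbol. Isg15 was among those not analysed here. In the unblocked fit 1 of the 79 rose with TGFbeta in each vector, Adarb1, which encodes the RNA-editing enzyme ADAR2. Adarb1 was at 10.22 and 9.91 after TGFbeta against 8.54 and 8.31 at 0 h in major satellite cells, and at 10.26 and 10.12 against 8.62 and 8.43 in control vector cells. It rose by 1.64 ± 0.16 (limma adjusted p = 0.0172) in major satellite cells and by 1.67 ± 0.16 (adjusted p = 0.014) in control vector cells. Over both vectors 3 rose and 2 fell unblocked, and 8 rose and 12 fell blocked, with a median of 0.00. The blocked counts are 10.1% and 15.2% of the 79, near the 11.2% and 13.1% of all genes given above, so the genes named next are single values and not a result about the lists.

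Of the 12 receptor and JAK-STAT genes, Stat3 rose by 0.52 ± 0.08 over both vectors (limma adjusted p = 0.0165), and with the block Jak2 (0.79 ± 0.23) and Il10rb (0.38) were higher while Ifngr1, Ifngr2, Ifnlr1 and the feedback inhibitor gene Socs3 (-0.61) were lower. Of the 14 other sensors and adaptors, Cgas, the sensor of cytoplasmic DNA, fell by 0.50 ± 0.08 (limma adjusted p = 0.0178), and its values were below the 25th percentile of gene means. With the block Tlr4 (-0.92) and the kinase gene Ikbke (-0.43) were lower too. Irf2bp2, a corepressor that binds IRF2, fell by 0.57 ± 0.10 (limma adjusted p = 0.0261), and Irf2 itself (-0.32) passed with the block. Among 22 other interferon-induced genes, the exonuclease gene Isg20 rose by 0.61 ± 0.09 (limma adjusted p = 0.0175), and with the block Ube2l6, Parp9 and Dtx3l were higher and the antiviral membrane protein gene Ifitm3 (-0.70) lower. Of the 9 nucleic acid clearance genes, Samhd1 and Rnaseh2b were lower with the block.

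No interferon ligand gene (8 measured, 4 of them below the 25th percentile) and none of 8 antigen presentation genes passed over both vectors in either fit. Within major satellite cells, Ifna4 passed with the block (0.32, blocked limma adjusted p = 0.0327). It is one of a family of near-identical genes that the probes may not tell apart. Its mean of 5.92 was below that percentile, where a probeset may read background alone. In control vector cells it was at 5.85 and 5.84 after TGFbeta against 5.95 and 5.94 at 0 h. The RNA helicase gene Dhx36 also passed with the block within major satellite cells (-0.30, blocked adjusted p = 0.0488). Ifnb1, which encodes interferon beta, was at 6.38 and 6.22 after TGFbeta against 6.31 and 6.31 at 0 h in major satellite cells, and at 6.07 and 6.17 against 6.41 and 6.14 in control vector cells. In the 4 comparisons that involve the vectors' difference, 0 of the 79 passed in either fit.

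Markers of other cell types were set beside these results. The summed linear signal of 8 immune markers was 1126.7 to 1383.2 after TGFbeta against 1125.6 to 1325.9 at 0 h in major satellite cells. In control vector cells it was 1116.5 to 1393.1 against 1076.5 to 1343.1. These ranges overlapped, but in each vector the lower value was above the lower one at 0 h, and the higher above the higher. Over both vectors Csf1r alone of the immune markers passed, with the block (0.27, blocked limma adjusted p = 0.00778). The summed signal of 7 fibroblast markers was higher after TGFbeta. It was 1488.6 to 1572.9 against 1122.7 to 1279.7 in major satellite cells and 1416.8 to 1516.3 against 1095.0 to 1350.1 in control vector cells. The markers did not move together. Over both vectors Pdgfra (0.66), Col1a1 (0.47) and Pdgfrb (0.29) passed in the blocked limma fit. Col3a1 (0.11), Dcn (0.09), Lum (0.06) and Thy1 (0.06) passed in neither fit. The part of these markers in the TGFbeta results was not tested. The summed signal of 5 endothelial markers was 498.4 to 592.8 against 445.0 to 533.4 in major satellite cells. In control vector cells it was 500.3 to 569.2 against 434.0 to 525.5. Of these markers Cdh5 alone passed over both vectors, with the block (0.30, blocked limma adjusted p = 0.00783). In such bulk RNA, fewer cells of a type and less RNA per cell cannot be told apart.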

How the data were processed

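The deposited values were log2 expression per probeset, 1 column per array, for 34760 probesets without missing values. Per the submitters' processing notes, RMA (robust multi-array average) and limma were used, without versions or roles given, and the labels' protocols name RNeasy extraction and the WT Sense Target labelling system. Scanner files were not used here. Of the probesets, 21640 had 1 gene symbol in the platform's probe table, 1321 had several and 11799 none, and the first were used. Symbols were updated through RefSeq (19855 matched, 82 kept), Tmem173 being Sting1. For 954 genes with more than 1 probeset the one with the highest mean was used, which left 19937 genes.

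From these, 7 comparisons were made by the lmFit, contrasts.fit and eBayes functions of limma 3.58.1 (R 4.3.3), with 1 mean per group and 4 residual degrees of freedom, two-sided, Benjamini-Hochberg adjusted over all genes. The blocked fit added the replicate number (3 residual degrees of freedom). Array titles carry 1 of 2 codes shared across groups, read as a day or batch, and deviations from the group means of same-numbered arrays correlated at r = 0.758 to 0.874 across genes, which are not independent replicates. The unblocked fit was tested on simulated data, for the TGFbeta comparison in control vector cells. The simulated noise was independent between arrays, unlike the real deviations, and the blocked fit was not tested in this way. Errors are standard errors of the unblocked fit, also beside a blocked p-value. Intervals are 95% confidence intervals, of the unblocked fit unless marked as blocked or drawn in a figure. The number of arrays limits the precision.

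Values on every array are given for genes that passed in either fit and for Irf7, Irf9, Stat2, Ddx58, Ifih1, Mavs, Ifnar1 and Ifnar2. The 34 genes and the lists were chosen with earlier results of these data known. Alternatives were array medians set equal, quantile normalization, a filter on low values, other handling of probesets, a variance trend, fits of only the arrays compared, each array left out, and, added after the data were seen, each replicate number on its own.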

Additional observations from a re-analysis of the deposited data

How the results depend on the processing

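Counts of the 34 genes passing are given for major satellite cells, control vector cells and both averaged in their TGFbeta response. They were 1, 2 and 4 as reported and 10, 7 and 15 with the replicate block, the paired fit. With array medians set equal or quantile normalization they were 1, 1 and 4, with every probeset in the fit 0, 0 and 2, and with only the arrays compared 0 and 0 (no such fit for the average). Genes above the 25th percentile, the mean of a gene's probesets and a variance trend left 1, 2 and 4. The share of all genes passing was worked out for the unblocked and blocked fits alone. Whether changes under the other settings are particular to the 34 genes was therefore not tested. Leaving out 1 array gave 0 to 1, 0 to 1 and 2 to 4 genes unblocked, and with the replicate block 5, 6, 7 or 9 in major satellite cells, 3, 4, 6 or 8 in control vector cells and 9, 10, 11, 12 or 13 for the average; where an arm then held 1 array, it was assumed to vary like the others. The vector comparisons and the comparison of responses had 0 passing under all of these alternatives. For the 15 genes that passed in some TGFbeta comparison, no alternative turned the direction. Counted per gene, comparison and alternative, the call stayed on its side 550 times, was gained 162 times and lost 40 times. Every gain was in a fit with the replicate block, and none came from the other alternatives alone. Only results that passed in the unblocked or the blocked fit were followed. A call missing unblocked was therefore followed because the block gave it, and gains with the block were fixed by this choice. A call that stayed on its side includes one that stayed not passing. What else lay behind these changes was not tested.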
